A study of Mus musculus with 12 samples.

Results

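Aortas of mice that had eaten a high-fat diet and then received the bile acid TUDCA were compared with aortas of mice kept on a normal diet, to ask which genes differed between a high-fat diet with TUDCA and a normal diet. The comparison takes 8 of the 12 RNA-seq libraries of the study, 4 labelled NFD and 4 labelled HFD+TUDCA, as named in the sample titles, and leaves out the 4 libraries of the high-fat diet without TUDCA. All mice were male, carried the genotype APOE-/- and were 8 weeks old at the start. NFD mice ate 5% fat with no cholesterol for 8 weeks and for the next 4 weeks, during which they were gavaged with saline. HFD+TUDCA mice ate 16% fat with 0.25% cholesterol, and after 8 weeks they were gavaged with TUDCA at 1000 mg/kg once a day for 4 weeks. Diet and TUDCA therefore both differ between the groups, and their effects cannot be told apart in this comparison. The labels do not say whether a library came from 1 mouse or from a pool, so the p-values measure the spread between these libraries, which may be technical in part. Both groups were labelled with the genotype APOE-/-, which a mouse carries from birth in every cell, so neither group shows a wild-type aorta.

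Mice without apolipoprotein E, a ligand that lets the liver take up lipoprotein remnants, have high blood cholesterol and form plaques in the aorta, and a fatty diet with cholesterol makes these larger. In a plaque, monocyte-derived macrophages take up cholesterol in lysosomes and become foam cells, while resident macrophages of the adventitia, marked by LYVE1 and CD163, are long-lived cells of the outer wall. TUDCA (tauroursodeoxycholic acid) is a bile acid conjugated to taurine and serves as a chemical chaperone, a compound that eases protein folding stress in the endoplasmic reticulum (ER).

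Library totals ranged from 15528206 to 22061687 counts, and a count of 0 allows up to 0.151 to 0.191 CPM (counts scaled to the library size), for counting error only. HFD+TUDCA replicate 4 stood apart from the other 7 libraries. Its position on the first principal component, which held 46.9% of the variance, was 117.7, against -48.8 to 24.3 for the others. It held 19.2% of its counts in mitochondrial genes, against 9.55% to 14.2%. The summed level of 15 heart muscle genes was 63.4 CPM there and 2205 to 12425 CPM elsewhere, that of 16 T and NK cell genes was 50.4 CPM against 311 to 456 CPM, and that of 15 airway genes was 10.1 CPM there, 23.8 CPM in HFD+TUDCA replicate 2 and 2439 to 6513 CPM in the others. The defining markers of aorta were present in all 8 libraries. Acta2, the actin of smooth muscle, lay at 1185 to 1598 CPM in NFD and 1086 to 1967 CPM in HFD+TUDCA, Cdh5, the cadherin of endothelium, at 224 to 284 and 215 to 333 CPM, and Dcn, the fibroblast proteoglycan decorin, at 430.1 to 829 and 298 to 660.4 CPM. Results are therefore given for all 8 libraries and, where it matters, without HFD+TUDCA replicate 4, a choice made after its values were seen.

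Of 22183 genes in the table, 14942 passed the filter on low counts and were tested, and 29 were called at an adjusted p under 0.05 (edgeR's quasi-likelihood test with Benjamini-Hochberg adjustment), which is 0.194% of them. Of these, 15 were higher in HFD+TUDCA (0.1% of the tested genes) and 14 were lower (0.0937%). An unadjusted p under 0.05 was reached by 1711 of the 14942 tested genes. In every called gene the 4 HFD+TUDCA values lay wholly above or wholly below the 4 NFD values, a separation seen in 1099 of all tested genes (7.36%). The median log2 fold change over all tested genes was 0.005. Of the 15 genes that rose 5 were on the list of foam cell genes and 3 were immunoglobulin segments, and of the 14 that fell 3 were listed markers of resident macrophages and 3 were listed genes that glucocorticoids induce. Other software gave other counts from the same 8 libraries. DESeq2 called 325 higher and 208 lower among 14911 genes, and limma-trend on log2(FPKM + 1) called 15 higher and 32 lower. Where lists below are counted by unadjusted p or by DESeq2, these totals over all tested genes are the background to set beside them.

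**Figure D1:**
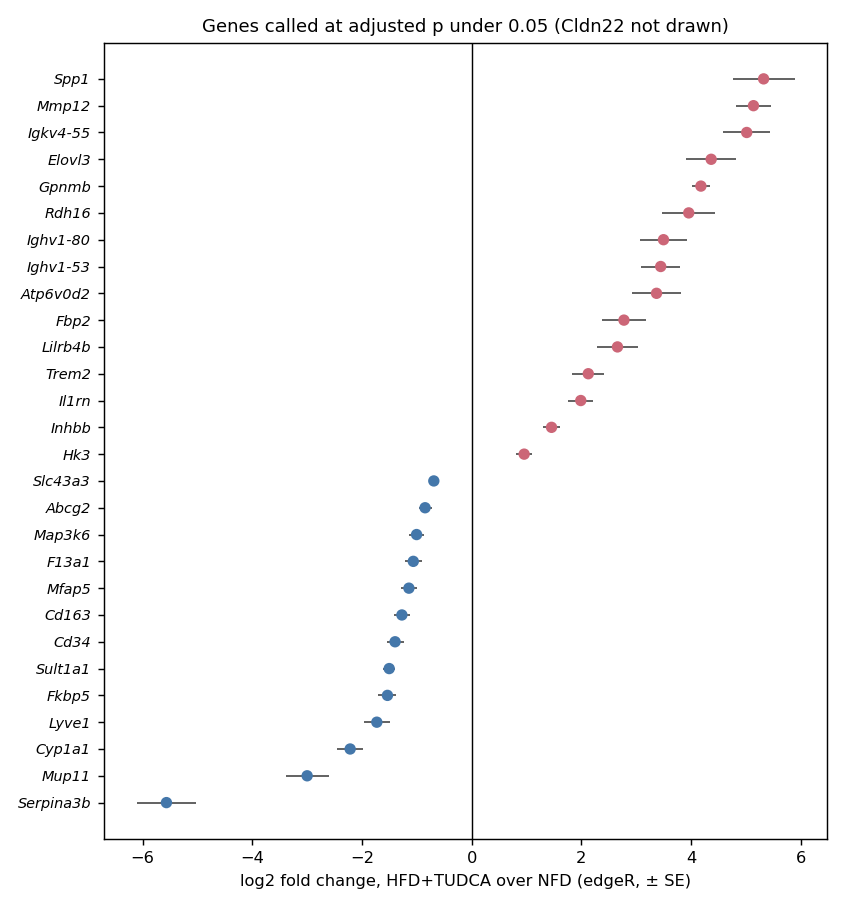
Log2 fold change (x axis) of 28 of the 29 called genes, HFD+TUDCA over NFD, from edgeR with its standard error as bars. Red points are higher and blue points lower in HFD+TUDCA, from 5.32 for Spp1 to -5.56 for Serpina3b; Cldn22, at 0 counts in all 4 HFD+TUDCA libraries, is not drawn.

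The number of calls depended on single libraries. Without HFD+TUDCA replicate 4 there were 682 calls among 15125 tested genes (4.51%), 419 of them higher (2.77%) and 263 lower (1.74%), and all 29 genes kept their call. Without HFD+TUDCA replicate 3 there were 140, again with all 29. Without any of the other 6 libraries fewer genes were called, namely 7, 4, 9 and 20 without NFD replicates 1 to 4 and 19 and 11 without HFD+TUDCA replicates 1 and 2. The 4 calls of Gpnmb, Mmp12, Sult1a1 and Igkv4-55 were kept in each of these 8 fits. No called gene changed direction in any of these fits. Where a call is said below to be lost without several libraries, it was lost when any 1 of them alone was left out.

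**Figure D2:**
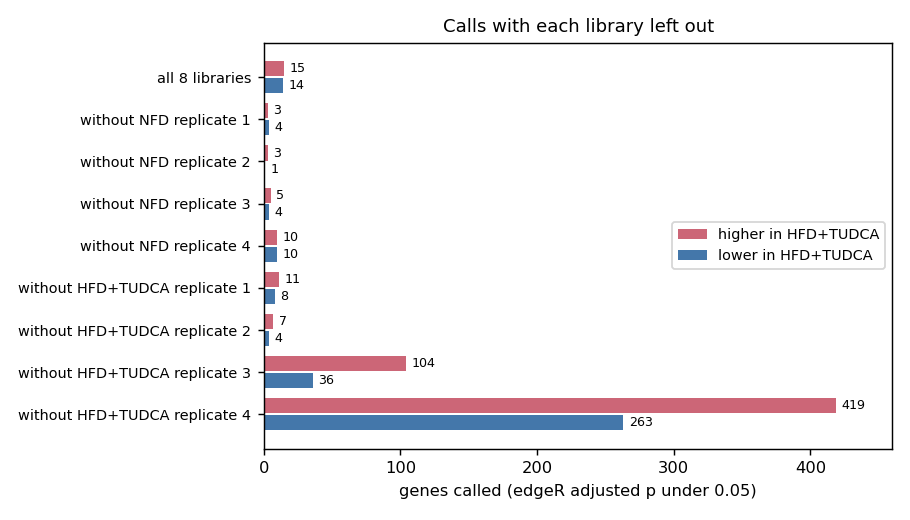
Number of genes called (x axis, edgeR adjusted p under 0.05) with all 8 libraries and with each library left out (y axis). Red bars count genes higher in HFD+TUDCA and blue bars genes lower, from 3 and 1 without NFD replicate 2 to 419 and 263 without HFD+TUDCA replicate 4.

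Of 22 listed foam cell genes 21 were tested, 5 rose and 0 fell, and the median log2 fold change of the tested members was 0.48. Gpnmb, a transmembrane glycoprotein of lipid-laden and lysosome-stressed macrophages (ENSMUSG00000029816, chromosome 6, 49036546 to 49070929, plus strand), had levels of 14.8, 18.4, 20.9 and 15.3 CPM in the NFD libraries and 282, 342, 284 and 348 CPM in the HFD+TUDCA libraries, both in the order of replicates 1 to 4. Every HFD+TUDCA library was far above every NFD library, and the 4 values of each group lay close together. The mean rose 18.1-fold, from 17.3 ± 2.87 to 314 ± 35.8 CPM, with a log2 fold change of 4.18 ± 0.17 and an adjusted p of 1.57e-05 by edgeR, the lowest adjusted p of the comparison. Here and below, ± gives the SD over 4 libraries for a level and the SE for a log2 fold change, and levels listed by library follow the replicate numbers.

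Mmp12, the elastase that macrophages secrete into the wall (ENSMUSG00000049723, chromosome 9, 7344381 to 7369499, plus strand), was at 2.08, 1.64, 1.51 and 1.95 CPM in NFD and at 36.2, 89.6, 55.0 and 72.5 CPM in HFD+TUDCA. The groups were separated by more than an order of magnitude, with the lowest treated value in replicate 1. The rise was 35.3-fold (log2 5.14 ± 0.31, adjusted p = 3.36e-04). Spp1, which encodes osteopontin, a secreted protein of plaque macrophages and of mineralising smooth muscle, had 7.29, 6.54, 5.70 and 6.66 CPM in NFD and 66.4, 226, 274 and 482 CPM in HFD+TUDCA. The NFD values were nearly equal and the treated values were spread widely, from replicate 1 at the bottom to replicate 4 at the top. The mean rose 40.0-fold (log2 5.32 ± 0.56, adjusted p = 0.00971), and the call was lost when NFD replicate 1, 2 or 3 alone was left out (adjusted p up to 0.0726).

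Trem2, the lipid-sensing receptor that marks foamy macrophages, lay at 3.30, 4.75, 2.73 and 6.18 CPM in NFD and 15, 18.4, 24.4 and 16.2 CPM in HFD+TUDCA. All treated libraries exceeded the highest NFD library, replicate 4. It rose 4.37-fold (log2 2.13 ± 0.29, adjusted p = 0.0247) and lost its call without NFD replicates 1, 2 and 3 or HFD+TUDCA replicates 1 and 2 (adjusted p up to 0.144). Atp6v0d2, a membrane subunit of the proton pump that acidifies lysosomes in macrophages and osteoclasts, was near the bottom of detection in NFD, at 0.426, 1.02, 1.16 and 0.475 CPM, and at 4.15, 10.6, 7.08 and 10.4 CPM in HFD+TUDCA. Its rise was 10.4-fold (log2 3.37 ± 0.45, adjusted p = 0.0247), and the call was lost without NFD replicates 1, 2, 3 and 4 or HFD+TUDCA replicate 2 (adjusted p up to 0.122). Lilrb4b, an inhibitory receptor of myeloid cells that is not on the list, rose from 0.778 ± 0.134 to 4.95 ± 1.87 CPM (log2 2.66 ± 0.37, adjusted p = 0.0304), with no overlap of the groups, but its near copy Lilrb4a makes the count uncertain.

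**Figure D3:**
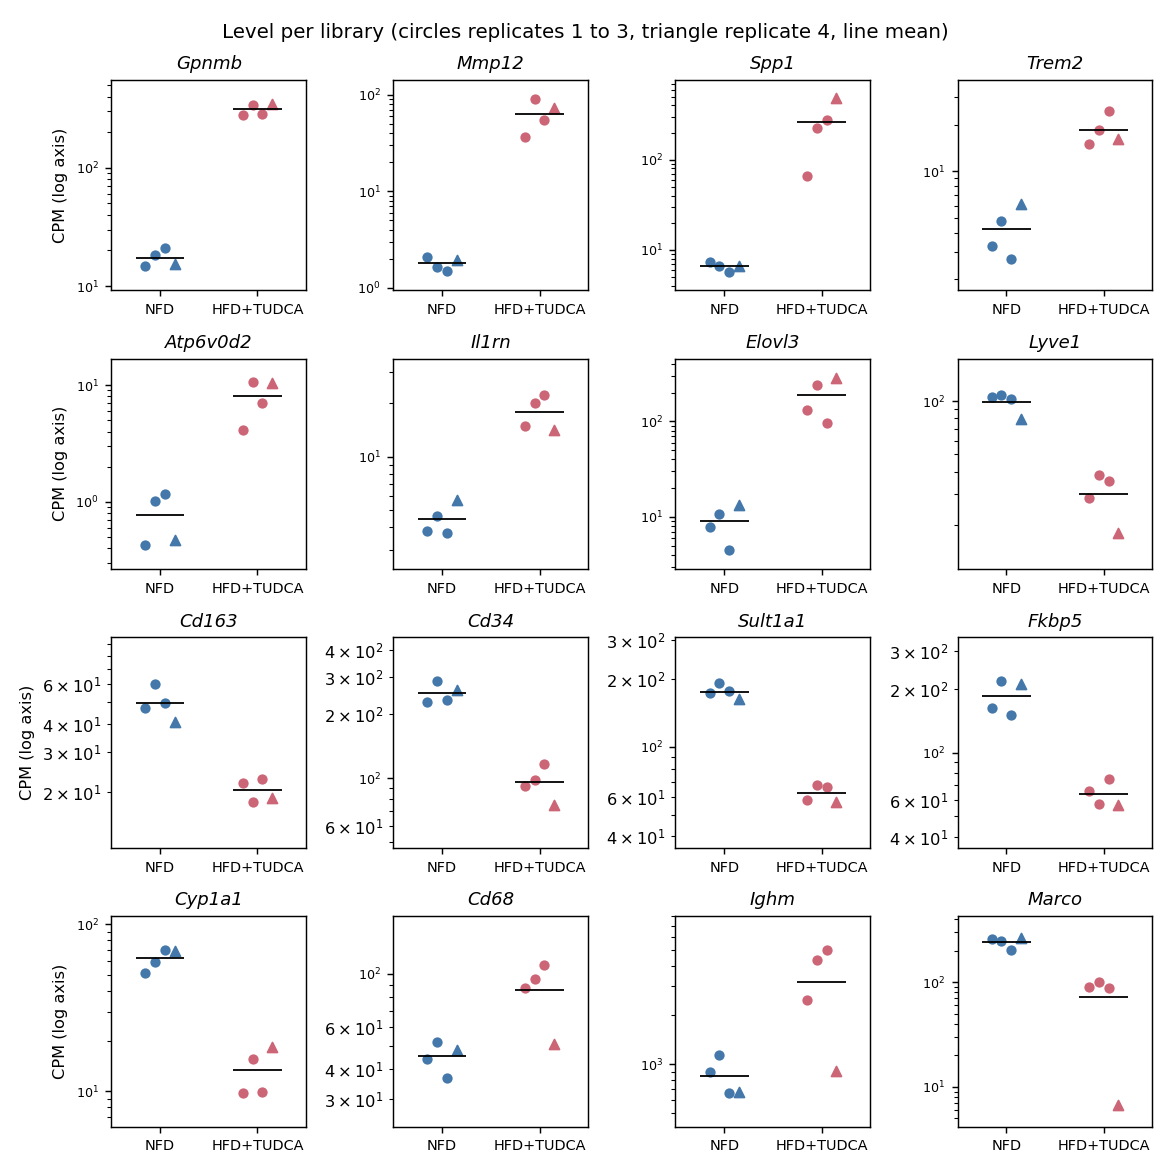
Level in CPM (y axis, log scale) of 16 genes in each library of the groups NFD and HFD+TUDCA (x axis), with circles for replicates 1 to 3, a triangle for replicate 4 and a line at the group mean. The groups are separated in the first 13 panels and in that of Marco, while the triangle of HFD+TUDCA lies apart from its circles for Cd68, Ighm and Marco.

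Other foam cell genes did not pass the test with all 8 libraries. Lgals3 (galectin-3) had 55.0 to 77.7 CPM in NFD and 113 to 201 CPM in HFD+TUDCA with no overlap (log2 1.17 ± 0.19, adjusted p = 0.0663), and Itgax, the integrin CD11c, had 8.98 to 14.4 and 22.1 to 49.6 CPM (adjusted p = 0.0913). Plin2, the coat protein of lipid droplets, was at 277 to 369 and 397 to 1030 CPM (adjusted p = 0.174). Without HFD+TUDCA replicate 4 the list had 9 calls higher and 0 lower, adding Lgals3 (adjusted p = 0.00468), Itgax (0.00474), Capg, an actin-capping protein of macrophages (0.00367), and the sugar phosphate exchanger Slc37a2 (0.0401). The lipid chaperone Fabp4, which fat also expresses strongly, overlapped between the groups (log2 0.22 ± 0.31).

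The RefSeq promoter windows (build GRCm38.p6, 250 bases before to 50 after the transcription start, so that base 251 is the start) of 3 foam cell genes are shown, Gpnmb and Mmp12 for their low adjusted p and Trem2 as the lipid receptor of these cells, a choice made with their motif matches known. The 2 windows of Spp1, which had the largest rise, held none of the motifs and are not printed. Capitals mark 4 motifs searched on both strands, TGANTCA (the AP-1 motif), TCATGTG (the M-box bound by MITF and TFE3), GCGTG (the core of the dioxin response element) and AGAACA (a half-site of the glucocorticoid response element).
Gpnmb, chr6:49036268-49036567, plus strand: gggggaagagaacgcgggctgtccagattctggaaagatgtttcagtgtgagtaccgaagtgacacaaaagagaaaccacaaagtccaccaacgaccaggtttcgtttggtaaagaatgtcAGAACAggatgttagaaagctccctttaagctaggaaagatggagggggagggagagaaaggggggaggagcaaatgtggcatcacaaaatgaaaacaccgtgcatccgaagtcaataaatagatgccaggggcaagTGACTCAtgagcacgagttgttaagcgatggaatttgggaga
Mmp12, chr9:7344147-7344446, plus strand: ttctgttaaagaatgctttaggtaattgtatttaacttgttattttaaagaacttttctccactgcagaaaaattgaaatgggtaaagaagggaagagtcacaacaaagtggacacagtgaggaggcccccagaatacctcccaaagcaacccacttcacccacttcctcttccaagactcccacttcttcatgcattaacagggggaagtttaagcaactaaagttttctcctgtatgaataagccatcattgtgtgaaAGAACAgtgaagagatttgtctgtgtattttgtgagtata
Trem2, chr17:48346151-48346450, plus strand: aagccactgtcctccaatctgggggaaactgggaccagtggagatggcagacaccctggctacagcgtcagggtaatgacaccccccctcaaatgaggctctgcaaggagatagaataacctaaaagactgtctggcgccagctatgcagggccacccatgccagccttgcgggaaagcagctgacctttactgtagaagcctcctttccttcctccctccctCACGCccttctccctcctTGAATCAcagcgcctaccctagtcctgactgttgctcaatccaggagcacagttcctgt
In the Gpnmb window an AP-1 match begins at base 259 and a glucocorticoid half-site at base 122. In that of Trem2 an AP-1 match begins at base 242 and a dioxin response core at base 224, and in that of Mmp12 a glucocorticoid half-site begins at base 261. A downstream RefSeq start of Mmp12 has a window with an AP-1 match at base 207 and an M-box match at base 168. Windows were found for 20 of the 29 called genes, and the AP-1 letters were in windows of 5 of these 20 genes (Fbp2, Gpnmb, Il1rn, Mmp12 and Trem2), against 8.97% of all genes and 7.81% of all windows. The M-box letters were in 1 of the 20 (4.31% of all genes and 3.77% of all windows). A match is a string of letters and not a binding site.

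Of 28 lysosomal genes, all tested, 1 rose (Atp6v0d2, described above) and 0 fell, 24 had a positive log2 fold change, and the median was 0.28. Lipa, the acid lipase that frees cholesterol from lipoprotein esters in lysosomes, had 96.8, 107, 98.7 and 111 CPM in NFD and 147, 194, 158 and 188 CPM in HFD+TUDCA. All 4 treated values were above all NFD values, but the test was not passed (log2 0.73 ± 0.12, adjusted p = 0.0727). Ctsz, a cathepsin, also showed no overlap, at 205 to 298 against 358 to 439.8 CPM (adjusted p = 0.129). Without HFD+TUDCA replicate 4 there were 6 calls higher, among them Lipa (adjusted p = 0.0203), Ctsz (0.0317) and the glucuronidase Gusb (0.0374).

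Genes of macrophages in general had 0 calls by edgeR among 20 tested (2 at an unadjusted p under 0.05, 2 higher and 0 lower by DESeq2), with a median of 0.32. Cd68, the lysosomal glycoprotein of macrophages, was at 43.8, 51.9, 36.5 and 47.8 CPM in NFD and at 87.3, 94.8, 109 and 50.9 CPM in HFD+TUDCA. Treated replicates 1 to 3 were above the NFD range and replicate 4 fell within it. Without replicate 4 Cd68 was called higher (log2 1.09 ± 0.14, adjusted p = 0.00474), as were the Fc receptor Fcgr4 (1.73 ± 0.28, 0.0117) and 3 others of the list. Adgre1 and Csf1r, the F4/80 antigen and the receptor of macrophage growth factor, had log2 values of 0.25 ± 0.28 and -0.08 ± 0.31 with all 8 libraries and were not called in either fit. In bulk tissue, fewer cells of a type and less RNA per cell cannot be told apart, and the same holds for more.

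Of 10 markers of resident macrophages, all tested, 0 rose and 3 fell, 8 had a negative fold change, and the median was -0.96. Lyve1, the hyaluronan receptor of adventitial macrophages and of lymphatic endothelium, had 106, 109, 103 and 79.7 CPM in NFD and 28.3, 38.3, 35.5 and 17.9 CPM in HFD+TUDCA. The groups were far apart, with replicate 4 the lowest in each. Lyve1 was 3.31-fold lower (log2 -1.73 ± 0.23, adjusted p = 0.0247). Cd163, the receptor for haemoglobin bound to haptoglobin, lay at 46.8, 60.1, 49.4 and 40.9 CPM in NFD and 21.9, 18.1, 22.8 and 18.9 CPM in HFD+TUDCA, which is 2.42-fold lower (log2 -1.27 ± 0.15, adjusted p = 0.0134). F13a1, the subunit of coagulation factor XIII that tissue macrophages make, lay at 138, 133, 135 and 104 CPM and 53.5, 53.5, 74.7 and 62.7 CPM, 2.09-fold lower (log2 -1.06 ± 0.15, adjusted p = 0.0318). In all 3 genes the groups did not overlap.

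Each of these 3 calls was lost when NFD replicate 1, 2 or 3 or HFD+TUDCA replicate 2 was left out, and the adjusted p rose to at most 0.127 for Lyve1, 0.0766 for Cd163 and 0.167 for F13a1; Lyve1 also lost it without NFD replicate 4 or HFD+TUDCA replicate 1, and F13a1 without HFD+TUDCA replicate 1. Of the other members, Mrc1 (the mannose receptor), Timd4 (a receptor for apoptotic cells), Folr2 (a folate receptor) and Fcna (ficolin A) were below NFD in every treated library without passing the test. Timd4 was at 56.7 to 70.9 CPM in NFD, at 31.2 to 37.8 CPM in treated replicates 1 to 3 and at 3.57 CPM in replicate 4. Without replicate 4 the list had 5 calls lower, adding Timd4 (log2 -0.83 ± 0.12, adjusted p = 0.00813) and Mrc1 (-0.77 ± 0.16, 0.0317). The scavenger receptor Marco, a marker of macrophages of the lung, spleen and liver, had the same shape, at 204 to 266 CPM in NFD, 88.0 to 101 CPM in replicates 1 to 3 and 6.62 CPM in replicate 4 (log2 -1.77 ± 0.64, adjusted p = 0.325, and -1.40 ± 0.13 with adjusted p = 0.00124 without replicate 4). It was the only member of the scavenger receptor list besides Cd163 with no overlap of the groups.

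**Figure D4:**
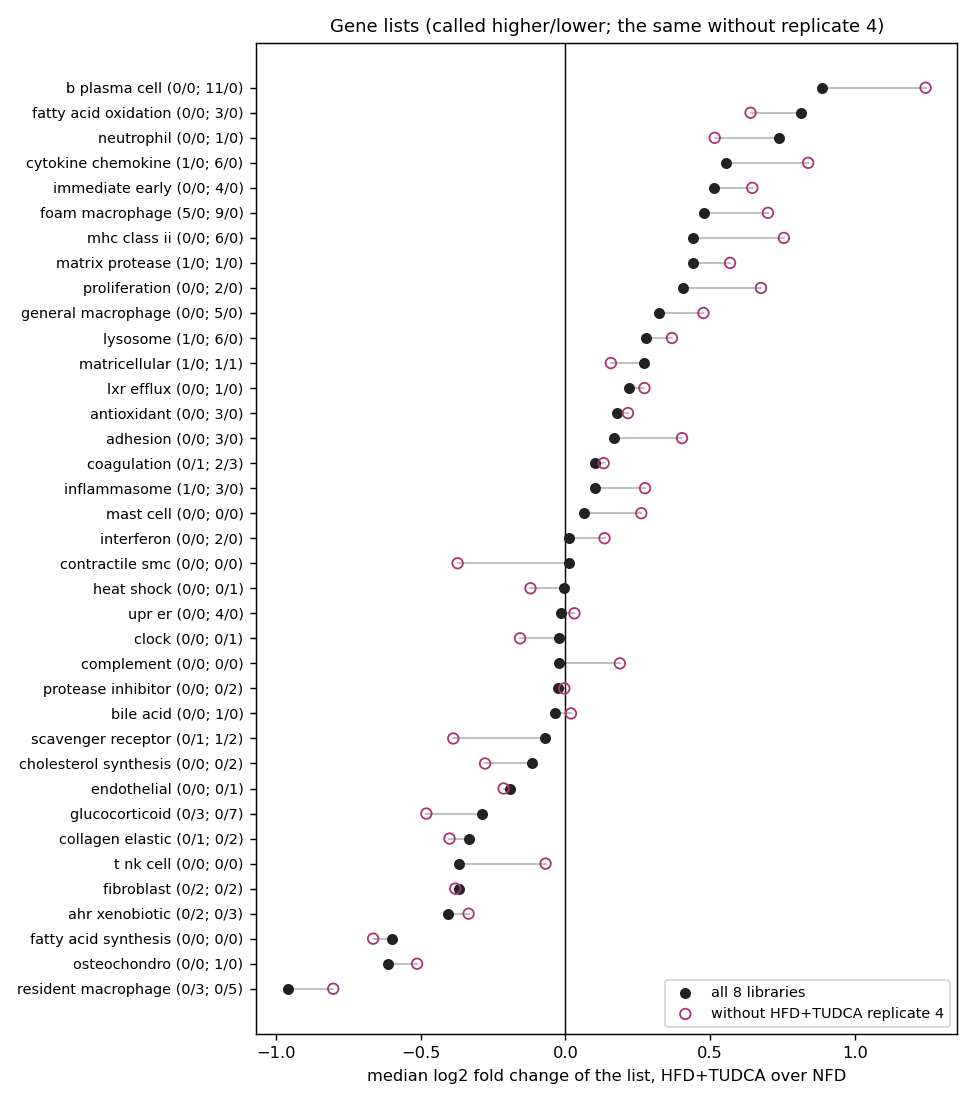
Median log2 fold change (x axis, HFD+TUDCA over NFD) of the tested members of each gene list that describes the wall, its immune cells or metabolism (y axis), with all 8 libraries (black) and without HFD+TUDCA replicate 4 (open circles). Numbers after each name are genes called higher and lower, first with all 8 libraries and then without that library, such as 5/0 and 9/0 for foam cells and 0/3 and 0/5 for resident macrophages.

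Of 25 tested cytokine and chemokine genes 1 rose and 0 fell, with a median of 0.56. The gene was Il1rn, the secreted antagonist of the interleukin-1 receptor, at 3.83, 4.65, 3.73 and 5.70 CPM in NFD and 14.8, 20.1, 22.2 and 14.1 CPM in HFD+TUDCA. Every treated library lay above every NFD library. It rose 3.98-fold (log2 1.99 ± 0.23, adjusted p = 0.00971), and the call was lost without NFD replicates 1, 2 and 3 or HFD+TUDCA replicate 2 (adjusted p up to 0.0697). Il1b, the ligand that it opposes, was at 2.18, 1.69, 2.37 and 1.11 CPM in NFD and at 4.15, 5.40, 6.78 and 15.1 CPM in HFD+TUDCA, where replicate 4 had the highest value. The groups did not overlap, yet the test was not passed (log2 2.09 ± 0.45, adjusted p = 0.124; 1.55 ± 0.31 and 0.0295 without replicate 4). The monocyte chemokine Ccl2 had 0.792 to 1.61 and 2.77 to 3.94 CPM (log2 1.35 ± 0.32, adjusted p = 0.146), and the membrane chemokine Cx3cl1 had 6.46 to 13.6 and 20.2 to 28.9 CPM (adjusted p = 0.0937). Without replicate 4 the list had 6 calls higher and 0 lower, adding Il1b, Ccl2 (adjusted p = 0.0437), Cx3cl1 (0.0317), the chemokine Ccl7 (0.0307) and the growth factor Tgfb1 (0.0173).

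Neutrophil genes had 0 calls by edgeR among 15 tested (7 at an unadjusted p under 0.05, 5 higher and 0 lower by DESeq2) and a median of 0.74, with 5 members above NFD without overlap. Among these Clec4e (Mincle, a lectin that senses dead cells and mycobacterial lipid) was at 0.634 to 1.38 and 2.50 to 5.03 CPM (log2 1.94 ± 0.36, adjusted p = 0.0917), and Csf3r, the receptor of granulocyte growth factor, at 10.7 to 13.9 and 14.9 to 25.3 CPM (adjusted p = 0.17). The defining gene Ly6g was near the limit of detection in both groups, at 0.106 to 0.460 and 0.0605 to 0.204 CPM. Of the tested neutrophil genes 11 were positive and 4 negative. Their list summed to 287, 479, 144 and 211 CPM in NFD and to 530, 99.9, 748 and 136 CPM in HFD+TUDCA. Treated replicates 2 and 4 were thus below every NFD library, and the list as a whole did not rise in all treated libraries. Adhesion molecules had 0 calls by edgeR among 14 (4 at an unadjusted p under 0.05, 2 higher and 0 lower by DESeq2), and Vcam1 and Icam1, which bind leukocytes to endothelium, overlapped between the groups (log2 0.14 ± 0.29 and 0.30 ± 0.23). The adhesion list without HFD+TUDCA replicate 4 had 3 calls higher, which were Itgax, Itgb2 (a leukocyte integrin chain, adjusted p = 0.0405) and Icam1 (log2 0.48 ± 0.12, adjusted p = 0.0496). Of 17 tested interferon genes 0 were called by edgeR (1 at an unadjusted p under 0.05, 0 higher and 0 lower by DESeq2), and of 13 complement genes 0 (1 at an unadjusted p under 0.05, 1 higher and 0 lower by DESeq2). Without replicate 4 the interferon list had 2 calls higher (the nucleic acid sensor Zbp1, adjusted p = 0.0173, and the transcription factor Irf7, 0.0335), the neutrophil list 1 (Clec4e, 0.0224) and the complement list 0.

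Genes of B cells and antibodies divided the treated libraries. Ighm, the heavy chain of IgM, was at 895, 1128, 661 and 673 CPM in NFD and at 2472, 4349, 5005 and 900.3 CPM in HFD+TUDCA. Treated replicates 1 to 3 were above all NFD libraries and replicate 4 was within their range. All 15 members of the B and plasma cell list had a positive log2 fold change (median 0.89) and 0 were called by edgeR with all 8 libraries (3 at an unadjusted p under 0.05, 2 higher and 0 lower by DESeq2). Without replicate 4, 11 of the 15 were called higher, among them Cd79a, the signalling chain of the B cell receptor (log2 1.39 ± 0.13, adjusted p = 0.00121), Mzb1, a chaperone of antibody-secreting cells (1.92 ± 0.18, 0.00124), and Igkc, the kappa light chain (2.03 ± 0.23, 0.0031). The B and plasma cell list summed to 1981 to 3206 CPM in NFD and 6564 to 9762 CPM in treated replicates 1 to 3. In replicate 4 it summed to 1632 CPM, below every NFD library. Genes of MHC class II presentation also divided the treated libraries, again with the summed level in replicate 4 below NFD. The sum was 2568 to 3420 CPM in NFD, 5027 to 5673 CPM in treated replicates 1 to 3 and 901 CPM in replicate 4. With all 8 libraries 7 of these genes were positive and 3 negative. Cd74, the invariant chain, stood at 1029 to 1289 CPM in NFD, 2137 to 2246 CPM in treated replicates 1 to 3 and 348 CPM in replicate 4, and 6 of the 10 listed genes were called higher without replicate 4 against 0 by edgeR with it (0 at an unadjusted p under 0.05, 0 higher and 0 lower by DESeq2). The T and NK cell list, with 0 calls by edgeR among 16 in either fit (1 at an unadjusted p under 0.05, 0 higher and 1 lower by DESeq2 with all 8 libraries), had its lowest sum in the same library.

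Of the immunoglobulin segments 3 were called with all 8 libraries, outside the rule for named genes and chosen after their values were seen. Igkv4-55, a variable segment of the kappa chain (ENSMUSG00000096833, chromosome 6, 69607275 to 69607828, minus strand), was at 1.76, 1.58, 2.62 and 2.38 CPM in NFD and 52.1, 124, 36.2 and 58.5 CPM in HFD+TUDCA, with all treated libraries high, replicate 4 included. It rose 32.5-fold (log2 5.01 ± 0.42, adjusted p = 0.00337). The heavy chain segments Ighv1-53 and Ighv1-80 rose 10.9-fold and 11.4-fold, with ranges of 1.06 to 2.17 CPM in NFD and 9.47 to 25.7 CPM in HFD+TUDCA for the first and 0.426 to 1.18 and 5.71 to 15.6 CPM for the second. Ighv1-53 lost its call without NFD replicates 1 and 2 and Ighv1-80 without NFD replicates 1, 2, 3 and 4 or HFD+TUDCA replicate 2 (adjusted p up to 0.0536 and 0.0775). Of 149 tested immunoglobulin genes (by GENCODE biotype) 131 had a positive fold change, and without replicate 4 there were 48 calls higher and 1 lower among 156. Summed over these genes, the level was 2091 to 3658 CPM in NFD, 9152 to 11635 CPM in treated replicates 1 to 3 and 1799 CPM in replicate 4. Variable segments are near copies of each other, and the counting could divide reads among them.

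Elovl3, Rdh16, Fbp2 and Hk3 encode enzymes of metabolism and rose, but Elovl3 alone of these is on a list, that of brown fat. Elovl3, an elongase of very long chain fatty acids that brown fat and skin glands express, was at 7.88, 10.7, 4.54 and 13.4 CPM in NFD and 132, 239.5, 97.0 and 284 CPM in HFD+TUDCA. The lowest treated library, replicate 3, was well above the highest NFD library. It rose 20.6-fold (log2 4.37 ± 0.46, adjusted p = 0.00971) and lost its call without NFD replicates 1 and 2 (adjusted p up to 0.0627). Rdh16, a retinol dehydrogenase, rose from 0.117 ± 0.0641 to 1.91 ± 0.489 CPM (log2 3.96 ± 0.48, adjusted p = 0.0152), and Fbp2, the fructose bisphosphatase of muscle, from 1.5 ± 0.548 to 10.3 ± 4.28 CPM (log2 2.78 ± 0.40, adjusted p = 0.033). Both had no overlap between the groups, and both lost their call without any 1 of 6 libraries (all but HFD+TUDCA replicates 3 and 4), with adjusted p up to 0.114 and 0.209. The NFD mean of Rdh16 was below the 0.151 to 0.16 CPM that a count of 0 allows in NFD, so the size of its rise is uncertain. Hk3, a hexokinase of myeloid cells, rose 1.94-fold, from 6.97, 7.10, 7.06 and 7.39 CPM to 14.5, 13.5, 15.3 and 12.2 CPM (log2 0.96 ± 0.14, adjusted p = 0.0471), and its call was lost without the same 6 libraries (adjusted p up to 0.218).

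With all 8 libraries Elovl3 was the 1 call among 11 genes of brown fat. When HFD+TUDCA replicate 4 was left out it was called again and Dio2, the deiodinase that activates thyroid hormone, was called lower (log2 -1.17 ± 0.17, adjusted p = 0.00898). In replicate 4 itself Dio2 was at 88.6 CPM, above the NFD range of 49.7 to 77.1 CPM. With all 8 libraries the adjusted p of Dio2 by edgeR was 0.758. Ucp1, the uncoupling protein that defines brown adipocytes, overlapped between the groups at 1918 to 3072 and 2040 to 4960 CPM (log2 0.62 ± 0.28, adjusted p = 0.439). The summed level of the brown fat list was 3169 to 4840 CPM in NFD and 3630 to 8296 CPM in HFD+TUDCA, and that of the 14 white fat genes 13783 to 18567 and 9950 to 21261 CPM, and the part of fat around the aorta in the result was not tested. Fatty acid oxidation genes, many of them targets of the receptor PPAR-alpha, had 0 calls by edgeR (12 at an unadjusted p under 0.05, 9 higher and 0 lower by DESeq2), although 15 of 16 tested members were positive (median 0.81). Acot1, a thioesterase of acyl-CoA, was at 4.05, 6.03, 3.13 and 4.59 CPM in NFD and 33.1, 12.1, 9.75 and 24.2 CPM in HFD+TUDCA, and Ppara itself at 26, 36.9, 34.8 and 29.9 and 81.0, 53.3, 43.7 and 99.0 CPM. Neither overlapped, and neither passed (adjusted p = 0.0917 and 0.14). Without replicate 4 Acot1, Acot2 and Ppara were called higher (adjusted p = 0.0451, 0.0297 and 0.0489).

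Fatty acid synthesis genes had 0 calls by edgeR among 16 (11 at an unadjusted p under 0.05, 0 higher and 4 lower by DESeq2) and a median of -0.60. Acly, which makes cytosolic acetyl-CoA from citrate, was at 2189, 1611, 3735 and 1435 CPM in NFD and 292, 1429, 1070 and 602 CPM in HFD+TUDCA (log2 -1.40 ± 0.49, adjusted p = 0.3), and Me1, a source of NADPH, at 1443, 631, 1906 and 596 and 174, 447, 200.5 and 473 CPM (log2 -1.82 ± 0.49, adjusted p = 0.179). The groups did not overlap in either gene, but each varied several-fold within both groups. Cholesterol synthesis genes had 0 calls by edgeR among 23 (3 at an unadjusted p under 0.05, 0 higher and 0 lower by DESeq2) and a median of -0.12, and Hmgcs1, which makes the precursor HMG-CoA, was at 60.5 to 81.0 CPM in NFD, 68.2 to 105 CPM in treated replicates 1 to 3 and 242 CPM in replicate 4. Without replicate 4, Cyp51 (lanosterol demethylase, log2 -1.05 ± 0.17, adjusted p = 0.0136) and Stard4 (a cytosolic cholesterol carrier, -0.77 ± 0.16, 0.0332) were called lower. The exporters of the LXR list were not called, with log2 values of -0.13 ± 0.16 for Abca1 and 0.22 ± 0.19 for Abcg1. Of 15 tested genes of that list edgeR called 0 (3 at an unadjusted p under 0.05, 0 higher and 0 lower by DESeq2), and without replicate 4 it called Pltp, a phospholipid transfer protein, higher (adjusted p = 0.0309).

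Sult1a1 had the lowest adjusted p among the genes that fell. It encodes a cytosolic sulfotransferase of phenols, which glucocorticoids induce in rat liver (ENSMUSG00000030711, chromosome 7, 126672865 to 126676432, minus strand). Its level was 173, 192, 177 and 164 CPM in NFD and 58.2, 67.7, 66.2 and 56.8 CPM in HFD+TUDCA. Each group was tight and the gap between them was wide. It fell 2.83-fold (log2 -1.5 ± 0.11, adjusted p = 0.00126). Fkbp5, a co-chaperone of the glucocorticoid receptor and a sensitive target of it (ENSMUSG00000024222, chromosome 17, 28399094 to 28517527, minus strand), was at 161, 218, 151 and 210 CPM in NFD and 65.8, 57.4, 75.3 and 56.8 CPM in HFD+TUDCA. No treated library came near the NFD range. Fkbp5 fell 2.90-fold (log2 -1.53 ± 0.16, adjusted p = 0.00971), and its call was lost without NFD replicate 2 or HFD+TUDCA replicate 2 (adjusted p up to 0.0577). Map3k6, a stress kinase, fell 2.01-fold, from 49.7, 62.0, 57.3 and 60.2 CPM to 33.0, 25.7, 25.7 and 29.9 CPM (log2 -1 ± 0.13, adjusted p = 0.0223), and lost its call without NFD replicates 1, 2, 3 and 4 or HFD+TUDCA replicate 2 (adjusted p up to 0.156).

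These 3 were the calls among 22 tested genes that glucocorticoids induce, with 0 called higher, 17 negative and a median of -0.29. Another 4 lay below NFD in every treated library without passing, namely Hif3a (a hypoxia-inducible factor subunit, 7.32 to 10.8 against 2.16 to 4.24 CPM, adjusted p = 0.0624), Zbtb16 (the repressor PLZF, adjusted p = 0.0917), Tat (tyrosine aminotransferase, 0.17) and Tsc22d3 (GILZ, an anti-inflammatory leucine zipper protein, 0.183). Without HFD+TUDCA replicate 4 there were 7 calls lower, adding Klf9, Hif3a, Zbtb16 and Tat (adjusted p = 0.015, 0.0163, 0.0253 and 0.0371). Klf9 was at 38.7 to 43.5 CPM in treated replicates 1 to 3 and at 102.1 CPM in replicate 4, above every NFD library. The list summed to 2258 to 2935 CPM in NFD and 2278 to 2348 CPM in treated replicates 1 to 3. Its sum was highest in treated replicate 4, at 3989 CPM. Per1, a clock gene and another target, overlapped at 50.9 to 74.4 and 38.6 to 99.1 CPM. Adrenal tissue was present in some NFD libraries, with a summed level of 14 adrenal genes of 2081, 109, 337 and 7981 CPM in NFD and 133, 120, 89.4 and 301 CPM in HFD+TUDCA. The part of adrenal tissue in these differences was not tested.

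Cyp1a1, the cytochrome P450 that the aryl hydrocarbon receptor induces (ENSMUSG00000032315, chromosome 9, 57687928 to 57703824, plus strand), stood at 51.2, 59.6, 69.8 and 69.6 CPM in NFD and 9.79, 15.6, 9.93 and 18.5 CPM in HFD+TUDCA. The highest treated library, replicate 4, was far below the lowest NFD library. Cyp1a1 fell 4.65-fold (log2 -2.21 ± 0.23, adjusted p = 0.00971), and lost its call without NFD replicates 2 and 3 (adjusted p up to 0.0596). With Sult1a1, which is on both lists, it gave 2 calls lower and 0 higher among 15 tested genes of xenobiotic metabolism (median -0.41). Cyp1b1, a second target of the receptor, was at 47.9 to 60.6 CPM in NFD and 27.2 to 40.6 CPM in HFD+TUDCA with no overlap (adjusted p = 0.156). The glutathione transferase Gsta3 (37.8 to 78.5 and 7.03 to 26.6 CPM) was called lower without replicate 4 (adjusted p = 0.0233), while the target Ahrr, the repressor of the receptor, overlapped at 0.858 to 1.33 and 0.532 to 1.27 CPM.

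Promoter windows of Sult1a1 and Cyp1a1 are shown, with the same capitals as above, and were chosen with their matches known. The windows of Fkbp5 and Map3k6, which also fell and are on the glucocorticoid list, held no glucocorticoid half-site and are not printed.
Sult1a1, chr7:126676369-126676668, minus strand: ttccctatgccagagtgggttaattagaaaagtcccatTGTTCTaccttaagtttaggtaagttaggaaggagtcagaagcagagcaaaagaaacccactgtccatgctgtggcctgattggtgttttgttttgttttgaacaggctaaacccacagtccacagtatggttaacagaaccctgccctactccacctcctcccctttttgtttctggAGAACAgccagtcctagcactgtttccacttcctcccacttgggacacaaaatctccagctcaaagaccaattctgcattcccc
Cyp1a1, chr9:57697363-57697662, plus strand: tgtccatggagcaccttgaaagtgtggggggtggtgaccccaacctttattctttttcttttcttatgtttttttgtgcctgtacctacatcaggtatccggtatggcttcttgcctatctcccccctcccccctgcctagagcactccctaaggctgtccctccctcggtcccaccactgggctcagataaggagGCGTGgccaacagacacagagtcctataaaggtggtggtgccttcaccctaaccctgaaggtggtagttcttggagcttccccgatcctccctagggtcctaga
The Sult1a1 window holds the glucocorticoid half-site at bases 39 and 217, and that of Cyp1a1 holds the dioxin response core at base 197. These short strings are common. The half-site letters were in windows of 7 of the 20 called genes (Cd163, Gpnmb, Inhbb, Mmp12, Rdh16, Serpina3b and Sult1a1), against 21.3% of all genes and 19% of all windows, and the dioxin core in 7 of the 20 (Abcg2, Cldn22, Cyp1a1, Il1rn, Map3k6, Serpina3b and Trem2), against 35.2% of all genes and 32.4% of all windows. The Fkbp5 window held none of the 4 strings, which says only that these letters are not in that window.

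Genes of the outer wall and of the matrix were lower in part. Of 15 fibroblast genes, all tested, 2 fell and 0 rose (median -0.37). Cd34, a sialomucin of adventitial progenitor cells and of endothelium, was at 228, 287, 234 and 259 CPM in NFD and 92.4, 98.5, 117 and 75.3 CPM in HFD+TUDCA, 2.63-fold lower without overlap (log2 -1.40 ± 0.15, adjusted p = 0.00971). Mfap5, a glycoprotein of elastic microfibrils, was at 65.0, 81.9, 78.9 and 80.3 and 29.9, 30.1, 41.4 and 37.0 CPM, 2.21-fold lower (log2 -1.14 ± 0.14, adjusted p = 0.0194). Cd34 lost its call without NFD replicates 1 and 2 or HFD+TUDCA replicate 2 and Mfap5 without NFD replicates 1, 2, 3 and 4 or HFD+TUDCA replicates 1 and 2 (adjusted p up to 0.0587 and 0.126). Pdgfra, the growth factor receptor that defines fibroblasts, overlapped between the groups (log2 -0.30 ± 0.14).

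Mfap5 was also the call among 22 collagen and elastic fibre genes, of which 0 rose and 18 were negative (median -0.33). Col1a1, the main fibrillar collagen chain, was at 227, 256, 262 and 242 CPM in NFD and 152, 122, 214 and 144 CPM in HFD+TUDCA, with no overlap and no call (log2 -0.64 ± 0.17, adjusted p = 0.178). Eln, the elastin gene, overlapped at 256 to 397 and 183 to 272 CPM. Without replicate 4 it was called lower (log2 -0.74 ± 0.17, adjusted p = 0.0411). Of 17 matrix proteases 1 rose (Mmp12, above) and 15 were positive (median 0.44), with Mmp3, stromelysin, at 34.6, 38.5, 48.0 and 28.6 CPM and 49.2, 88.4, 208 and 101 CPM (adjusted p = 0.164). Of 10 protease inhibitors 0 were called by edgeR (5 at an unadjusted p under 0.05, 1 higher and 0 lower by DESeq2). Timp1, which inhibits metalloproteinases, was above NFD in every treated library (5.75 to 14.3 against 14.9 to 40.1 CPM, log2 1.73 ± 0.38, adjusted p = 0.129), and Timp4 below (113 to 141 against 63.5 to 108 CPM, -0.56 ± 0.18, 0.253). Without replicate 4 Timp4 (adjusted p = 0.0336) and Timp3 (0.0295), another inhibitor of these enzymes, were called lower.

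Contractile smooth muscle genes had 0 calls by edgeR among 20 (1 at an unadjusted p under 0.05, 0 higher and 0 lower by DESeq2) and a median of 0.01. Myh11, the smooth muscle myosin heavy chain, was at 411, 499, 536 and 343 CPM in NFD and 326, 311, 378 and 810 CPM in HFD+TUDCA. Replicate 4 was the highest of the 8 libraries while treated replicates 1 to 3 were within or below the NFD range. Without replicate 4 the median of the list was -0.37, with 18 of 20 members negative and 0 called. Endothelial genes had 0 calls by edgeR among 19 (4 at an unadjusted p under 0.05, 0 higher and 1 lower by DESeq2), with a median of -0.19. Emcn, an endothelial sialomucin of capillaries and veins, was at 58.4, 61.7, 56.3 and 61.6 CPM and 30.3, 36.5, 36.8 and 48.6 CPM with no overlap (adjusted p = 0.141, and 0.00643 without replicate 4).

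The transporters Abcg2, an exporter of drugs and urate, and Slc43a3, a carrier of purine bases, fell 1.80-fold and 1.61-fold; both were called outside the rule for named genes and were named after their values were seen. Abcg2 lay at 62.6 to 71.2 CPM in NFD and 32 to 42.6 CPM in HFD+TUDCA (log2 -0.85 ± 0.12, adjusted p = 0.0288). Slc43a3 had the smallest change of the called genes and the tightest groups, at 174, 181, 177 and 178 CPM and 103, 112, 113 and 112 CPM (log2 -0.69 ± 0.09, adjusted p = 0.0247). Inhbb, the beta B chain of activin and inhibin, rose 2.74-fold from 5.43, 5.57, 5.2 and 5.23 CPM to 15.9, 11.9, 14.7 and 16.3 CPM (log2 1.46 ± 0.16, adjusted p = 0.00971). The NFD values of Inhbb were almost equal and the groups did not overlap. Abcg2 and Slc43a3 lost their calls without any 1 of the 6 libraries other than HFD+TUDCA replicates 3 and 4 (adjusted p up to 0.182 and 0.167), and Inhbb without NFD replicates 1, 2 and 3 (up to 0.0762).

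No stress gene of the endoplasmic reticulum, where TUDCA is used against misfolding, passed edgeR's test with all 8 libraries. Of 33 tested genes of the unfolded protein response 0 were called (5 at an unadjusted p under 0.05, 3 higher and 0 lower by DESeq2), 16 were positive and the median was -0.02. Hspa5, the ER chaperone BiP, was at 225, 200.5, 246 and 172 CPM in NFD and 140.3, 176, 192 and 267 CPM in HFD+TUDCA. The groups overlapped, with the highest and the lowest library both in HFD+TUDCA. Its log2 fold change was -0.12 ± 0.20 (adjusted p = 0.89), that of Ddit3, the death-promoting factor CHOP, was -0.17 ± 0.19 and that of Atf4, the factor of the PERK arm, 0.26 ± 0.13. A p that misses the threshold does not show equal levels, and the size of the SE limits what could be seen. Without replicate 4, 4 of the 33 were called higher, led by Derl3, an ER degradation factor that plasma cells express strongly (log2 1.44 ± 0.26, adjusted p = 0.02). Derl3 was at 1.82 to 2.77 CPM in NFD, 5.64 to 8.72 CPM in treated replicates 1 to 3 and 1.32 CPM in replicate 4.

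Bile acid receptors were low. Nr1h4, the nuclear receptor FXR, was at 1.49, 0.716, 0.757 and 2.38 CPM in NFD and 0.426, 0.318, 0.0605 and 0.0510 CPM in HFD+TUDCA, below NFD in every library but not called (log2 -2.61 ± 0.72, adjusted p = 0.188). Its highest NFD values were in replicates 4 and 1, which also had the highest adrenal sums (7981 and 2081 CPM, against 109 and 337 CPM in NFD replicates 2 and 3). The part of adrenal tissue in the level of Nr1h4 was not tested. Gpbar1, the membrane receptor TGR5, was at 0 to 0.0528 and 0 to 0.153 CPM, under the filter and not tested. Of 15 listed bile acid genes 7 were tested and 0 called by edgeR (1 at an unadjusted p under 0.05, 0 higher and 1 lower by DESeq2). Without replicate 4 there were 8 tested and 1 called higher, S1pr2, a sphingosine phosphate receptor that conjugated bile acids can activate (adjusted p = 0.0478). Apoe itself was counted at 17.0, 11.2, 11.3 and 16.4 CPM in NFD and 34.1, 11.7, 15.1 and 15.9 CPM in HFD+TUDCA (log2 0.46 ± 0.33, adjusted p = 0.695); gene-level counts carry no exon information, and the genotype could therefore not be checked from them.

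Serpina3b, Mup11 and Cldn22 fell and are on none of the 48 lists. Serpina3b, a serine protease inhibitor, was at 45.3, 55.4, 33.2 and 40.5 CPM in NFD and 1.65, 1.33, 0.545 and 0.153 CPM in HFD+TUDCA, with every treated library almost empty. It fell 47.3-fold (log2 -5.56 ± 0.55, adjusted p = 0.00967), and the call was lost without NFD replicate 2 (adjusted p 0.0535). Mup11, a major urinary protein of liver and glands whose near-identical copies make the count uncertain, fell 8.05-fold with 4.07 to 13.1 CPM in NFD and 0.908 to 1.63 CPM in HFD+TUDCA (log2 -3.00 ± 0.39, adjusted p = 0.0223), and lost its call without NFD replicates 1, 2 and 3 or HFD+TUDCA replicates 1 and 2 (adjusted p up to 0.113). Cldn22, a claudin of tight junctions (ENSMUSG00000038064, chromosome 8, 47824482 to 47825476, plus strand), had 6.23, 8.28, 3.78 and 4.33 CPM in NFD and 0 counts in all 4 HFD+TUDCA libraries, which is at least 133-fold lower when 3 counts in the whole group are taken as the floor. Its adjusted p was 0.00971, and the call was lost without NFD replicates 1, 2 and 3 (up to 0.0666). Cldn22 lies inside Wwc2 on the opposite strand, and the counts of both genes were fractions in all 4 NFD libraries and whole numbers in all 4 HFD+TUDCA libraries, so that the assignment of these reads is uncertain.

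Lists of other tissues varied between libraries, and their part in the results was not tested. edgeR called 0 of the 15 heart (1 at an unadjusted p under 0.05, 0 higher and 0 lower by DESeq2), 0 of the 14 tested liver (5 at an unadjusted p under 0.05, 0 higher and 3 lower by DESeq2), 0 of the 9 tested adrenal (6 at an unadjusted p under 0.05, 0 higher and 3 lower by DESeq2) and 0 of the 15 airway genes (2 at an unadjusted p under 0.05, 0 higher and 1 lower by DESeq2). Besides the heart, adrenal and airway sums given above, the summed level of 17 liver-type genes was 4843 to 7485 CPM in NFD and 1938 to 5831 CPM in HFD+TUDCA, largely from genes such as Hp (haptoglobin, 1753 to 2951 against 1027 to 1439 CPM) that fat also expresses. Hp without HFD+TUDCA replicate 4 (log2 -0.87 ± 0.21, adjusted p = 0.046) and Serpina3k, a serine protease inhibitor (-2.67 ± 0.42, 0.0173), were called lower, and 0 genes of the heart, adrenal and airway lists were called. The surfactant gene Sftpc, which defines lung alveolar cells, was at 1.38, 149.5, 122 and 2.75 CPM in NFD and 0.266, 0.127, 0.848 and 0.102 CPM in HFD+TUDCA. Airway sums in NFD and in treated replicates 1 and 3 were of similar size, while in replicates 2 and 4 the list was nearly empty.

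**Figure D5:**
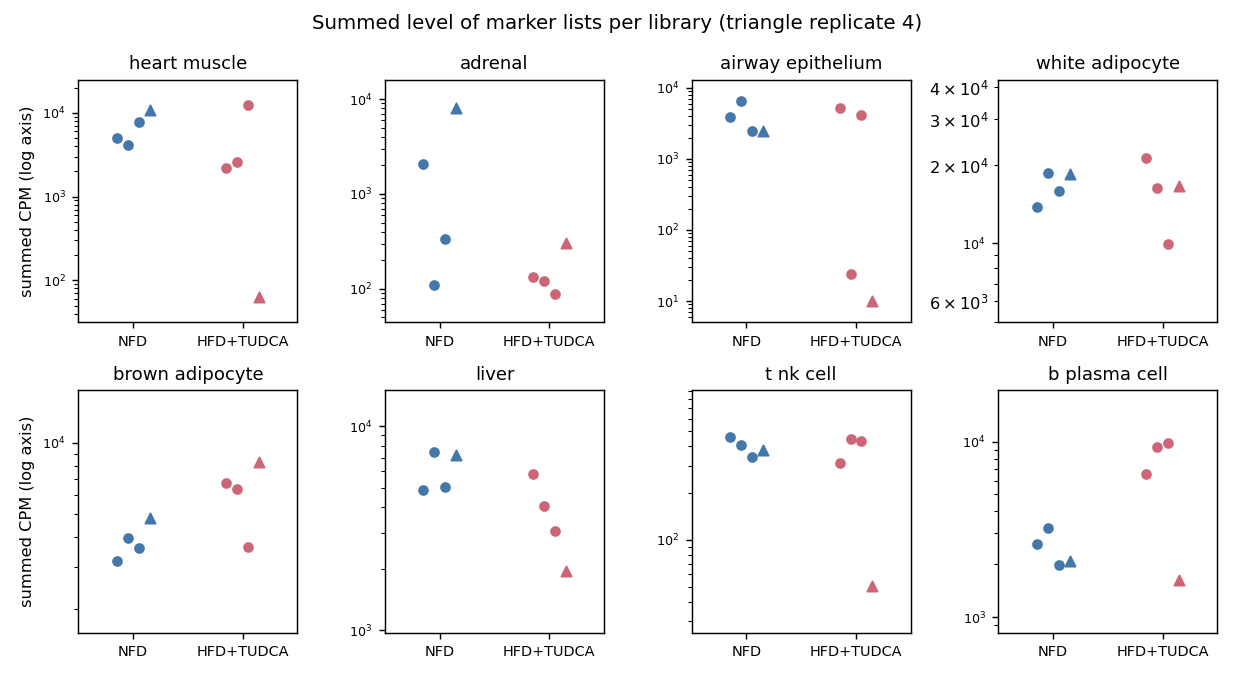
Summed CPM (y axis, log scale) of 8 marker lists in each library of NFD and HFD+TUDCA (x axis), with circles for replicates 1 to 3 and a triangle for replicate 4. The HFD+TUDCA triangle lies lowest for heart (63.4 CPM), airway (10.1 CPM), liver (1938 CPM), T and NK cell (50.4 CPM) and B and plasma cell genes. Adrenal sums span 109 to 7981 CPM within NFD.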

How the data were processed

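RNA of mouse aorta was extracted with Trizol, enriched for poly(A) and made into libraries with the NEBNext Ultra RNA kit, per the labels' protocols. For all 22183 genes the authors deposited counts and FPKM, which scales fragments to gene length and depth. The build was GRCm38, per the submitters' processing notes. Neither the aligner nor the counter, annotation or strand setting is named in any source used here. Between 8.63% and 9.43% of a library's deposited counts had fractions, so the counts were taken for expected counts and rounded. Near copies and overlapping genes can share reads, as for immunoglobulin segments, Mup11, Lilrb4b and Cldn22.

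edgeR 4.0.16 (R 4.3.3, robust quasi-likelihood fit, TMM factors of 0.89 to 1.07) was run on the 8 libraries. filterByExpr was set to at least 10 counts and a total of at least 15, and p-values were adjusted by Benjamini-Hochberg over all tested genes with a threshold of 0.05. CPM used the TMM factors, and the SE is the size of the log2 fold change divided by the square root of F. The procedure was also run on simulated counts, drawn with the same spread for every library. No simulated library was made to stand apart as HFD+TUDCA replicate 4 does, so the simulation cannot show how that library affects the calls. Coordinates are those of GENCODE M21 (GRCm38), found by identifier for 22128 genes, and promoters are RefSeq's (GRCm38.p6).

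The comparison, its members and the 48 gene lists were chosen with earlier results of these data known. Named genes were the 12 largest rises and 12 largest falls among called genes without overlap whose mean was 1 CPM or more (predicted genes and immunoglobulin or T cell receptor segments left out), the markers Gpnmb, Mmp12, Sult1a1 and Fkbp5, up to 4 members of each list by unadjusted p, and a panel of genes of stress, inflammation, wall and lipid handling. Other list members in the text were chosen after their values were seen. Lists are described by counts and medians, with no test.

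Alternatives were RLE and upper-quartile scaling, library sizes without mitochondrial genes, DESeq2 1.42.0, limma-voom, limma-trend (limma 3.58.1) on the authors' FPKM, other filters and thresholds, the replicate number as a block, a heart muscle score as covariate, and each library left out. The 4 libraries of the high-fat diet without TUDCA were not used.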

Additional observations from a re-analysis of the deposited data

Results flagged for a closer look

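In 13 results a library lay far from the other 3 of its group by Dixon's test, of 256 groups of 4 examined, and chance flags about 1 in 20 groups. Of these 8 were in HFD+TUDCA replicate 4. There Marco, a scavenger receptor, was at 6.62 CPM against 88.0 to 101.2 CPM in the other treated libraries, Cd74, the invariant chain of MHC class II, at 348 CPM against 2137 to 2246 CPM, and Icam1, an adhesion molecule, at 38.3 CPM against 76.7 to 80.0 CPM. In the same library Acta2 was high at 1967 CPM against 1086 to 1222 CPM, Myh11 at 810 CPM against 311 to 378 CPM, and Klf9, a glucocorticoid target, at 102.1 CPM against 38.7 to 43.5 CPM. Also in that library Tgfb1, a growth factor, was at 48.9 CPM against 99.5 to 108.2 CPM, and Dio2, a deiodinase, at 88.6 CPM against 23.3 to 29.8 CPM. The other flags were Dio2 in NFD replicate 4 (77.1 CPM, others 49.7 to 53.7), Slc43a3 in HFD+TUDCA replicate 1 (103.2 CPM, others 111.9 to 112.7), F13a1 in NFD replicate 4 (103.9 CPM, others 133.1 to 138.4), Timp1 in NFD replicate 4 (14.3 CPM, others 5.75 to 7.01) and Klf9 in NFD replicate 3 (99.7 CPM, others 67.2 to 71.2).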

How the results depend on the processing

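The number of called genes, 29 with 15 higher and 14 lower, stayed within 1.5 times under RLE and upper-quartile scaling, library sizes without mitochondrial genes, limma-voom, no filter, a minimum count of 30 and a 2-fold threshold. DESeq2 called 533 (325 higher and 208 lower), limma-trend on log2(FPKM + 1) 47 (32 lower) and on log2(FPKM + 0.1) 43 (27 lower). With pseudocount 0.1 the median log2 fold change of all genes was -0.13, against 0.005 by edgeR. A heart muscle score as covariate gave 108 calls (56 and 52), and an adjusted p under 0.01 left 14 (8 and 6). Leaving out 1 library gave 4 to 682 calls, with 3 to 419 higher and 1 to 263 lower. The cause of these differences was not tested.

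The deviations of same-numbered libraries from their group means correlated at -0.346 to -0.0917, and those of differently numbered libraries at -0.418 to 0.428. Whether the replicate numbers pair the libraries cannot be decided from these values, because HFD+TUDCA replicate 4 stood apart and shifts the mean of its group. The fit with a replicate block had 8 calls, 5 higher and 3 lower, all of them among the 29.

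The 29 called genes kept their direction under every alternative that tested them. Rdh16 was tested in 18 of the 19 alternatives. Genes that were not called changed sign as follows. Myh11 (0.03 with all 8 libraries) was at -0.008 with upper-quartile scaling, -0.076 by limma-voom, -0.171 and -0.174 by limma-trend with pseudocounts 1 and 0.1, -0.089 with the replicate block, -0.37 with the heart covariate and -0.417 to 0.175 with 1 library left out. Under the heart covariate Csf1r was at 0.236, Cdh5 at -0.033 and Fabp4 at -0.261. With 1 library left out the log2 fold change ran from -0.227 to 0.001 for Abca1, -0.331 to 0.008 for Hspa5, -0.033 to 0.38 for Vcam1, -0.277 to 0.065 for Acta2, -0.118 to 0.386 for Adgre1, -0.399 to 0.103 for Per1, -0.264 to 0.166 for Csf1r and -0.068 to 0.446 for Fabp4.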

Other observations

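With all 8 libraries, immediate early genes, which cells switch on within minutes of a stimulus, had 0 calls by edgeR among 16 tested, with 8 at an unadjusted p under 0.05 and 4 higher by DESeq2. Without HFD+TUDCA replicate 4, 4 were called higher, namely Egr2 (adjusted p = 0.0332), Junb (0.0378), Jund (0.0411) and Atf3 (0.0486), all by edgeR. Of 14 coagulation genes 1 was called with all 8 libraries, F13a1, which was lower. Without replicate 4 there were 5 calls, with the urokinase receptor Plaur (0.0104) and factor X, F10 (0.0219), higher and F13a1 (0.00898), tissue factor F3 (0.0225) and the protein C receptor Procr (0.0416) lower.

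Of 17 clock genes 0 were called by edgeR with all 8 libraries, with 4 at an unadjusted p under 0.05 and 1 lower by DESeq2, and without replicate 4 Per2 was called lower (0.0336). Of 16 proliferation genes 0 were called by edgeR with all 8 libraries, with 1 at an unadjusted p under 0.05 and 0 by DESeq2, and without replicate 4 the cycling marker Mki67 (0.0173) and the replication helicase subunit Mcm5 (0.0395) were called higher among 17 tested.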
